A study of Mus musculus with 15 samples.

Results

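Ighm, Cd79a, Cd28, Lck and Csf3r are genes of other blood lineages whose read counts were higher in RAW264.7 macrophages after 24 h with the peptide LCCL. These 5 genes, of 25639 symbols in the count table, were chosen by their higher counts at 24 h, so their 24 h values against untreated or 6 h cells are given as a description and carry no test. All 5 passed the filter on low counts, as did 12401 genes in all. Cd79a passed it only through its reads at 24 h, in the groups that also served in choosing it. RAW264.7 is a mouse macrophage-like line established from a tumour induced by Abelson murine leukemia virus, and all cells here were labelled wild type (WT). There were 15 RNA sequencing libraries in 5 groups of 3: untreated cells, and cells exposed to LCCL at 1 µg or 10 µg, each dose with a 6 h group and a 24 h group. The labels give the dose as a mass without a volume, name no vehicle control and no harvest time for the untreated cells, and put every library in the same batch, so time in culture and peptide exposure cannot be told apart at 24 h. The labels do not say whether replicates were separate cultures, so the p-values reflect variation among the libraries sequenced, which can be technical variation.

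Ighm encodes the constant region of the immunoglobulin mu heavy chain, which B cells assemble with a light chain into the IgM receptor. Cd79a encodes the signalling chain Ig-alpha, which pairs with Ig-beta (Cd79b) under that receptor. Cd28 is the T cell receptor for the costimulatory ligands CD80 and CD86, and Lck is the Src-family kinase that phosphorylates the CD3 and zeta chains when the T cell receptor is engaged. Csf3r is the receptor for granulocyte colony-stimulating factor (G-CSF), which drives neutrophil production and signals through JAK kinases and STAT3. Macrophages depend on the CSF1 receptor and the transcription factor PU.1, encoded by Spi1.

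Library totals ran from 19085148 to 22434642 counts. At these depths 3 counts, the limit that a count of 0 allows, correspond to 0.13 to 0.16 CPM (counts scaled to library size after TMM adjustment), a limit that covers counting error only. The macrophage genes were the abundant ones: per kilobase of exon, untreated cells gave 7550 CPM for the lysozyme gene Lyz2, 249 for Csf1r, 127 for Spi1, 40.2 for the integrin gene Itgam and 12.7 for Adgre1, the F4/80 gene. On the same scale the 5 genes lay between 0.153 CPM per kb for Cd79a and 1.39 for Lck. In a bulk library, fewer cells with a transcript and less transcript per cell cannot be told apart.

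The RefSeq promoter table (build GRCm38.p6) matched 3 of the 5 genes, with 1 start for Cd79a, 1 for Csf3r and 2 for Lck. The 250 bases before each start are shown because these genes were higher together at 24 h and 3 of the 4 windows hold the letters GAGGAA, a core of the PU.1 motif, on either strand. Capitals mark that match, and TTCCTC is the same match on the other strand. The windows lie at chr7:24897247-24897496 (plus strand) for Cd79a, chr4:129573642-129573891 and chr4:129558373-129558622 (minus strand) for the upstream and downstream starts of Lck, and chr4:126024409-126024658 (plus strand) for Csf3r.
Cd79a: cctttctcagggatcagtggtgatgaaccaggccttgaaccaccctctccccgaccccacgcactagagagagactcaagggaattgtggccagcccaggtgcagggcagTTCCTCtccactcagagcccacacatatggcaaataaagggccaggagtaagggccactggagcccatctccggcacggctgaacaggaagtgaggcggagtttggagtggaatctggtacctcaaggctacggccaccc
Lck, upstream start: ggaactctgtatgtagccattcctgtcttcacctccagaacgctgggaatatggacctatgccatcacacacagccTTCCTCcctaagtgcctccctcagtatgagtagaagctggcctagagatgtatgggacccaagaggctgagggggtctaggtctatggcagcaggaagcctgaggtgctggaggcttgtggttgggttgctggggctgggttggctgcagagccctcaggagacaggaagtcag
Lck, downstream start: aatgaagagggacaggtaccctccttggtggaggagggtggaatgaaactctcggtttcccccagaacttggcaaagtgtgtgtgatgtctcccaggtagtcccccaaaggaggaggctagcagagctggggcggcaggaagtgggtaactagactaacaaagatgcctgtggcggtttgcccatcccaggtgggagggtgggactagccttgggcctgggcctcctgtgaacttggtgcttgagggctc
Csf3r: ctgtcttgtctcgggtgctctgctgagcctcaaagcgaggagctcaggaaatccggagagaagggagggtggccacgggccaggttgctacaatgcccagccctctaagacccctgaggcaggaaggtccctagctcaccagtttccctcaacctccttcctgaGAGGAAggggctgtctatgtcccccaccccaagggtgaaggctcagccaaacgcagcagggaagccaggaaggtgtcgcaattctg
The match began at position -140 in Cd79a, -174 before the upstream Lck start and -86 in Csf3r, counted from the start site, and the window before the downstream Lck start held none. Of 32851 promoter windows of the same length in the table, 23.3% held GAGGAA on either strand. No window of the 3 genes held the octamer ATGCAAAT (1.6% of all windows), the C/EBP letters TTGCNNAA (9.56%), the AP-1 letters TGANTCA (6.75%) or the NF-kB letters GGANTTTCC (1.07%). The shared match is therefore common among promoters, and a match is a description of letters, not of binding.

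Ighm stood at 0.732, 1.28 and 1.39 CPM in the 3 untreated libraries. It stood at 0.854, 1.5 and 1.11 CPM after 6 h with 1 µg and at 1.62, 1.33 and 1.25 CPM after 6 h with 10 µg. After 24 h the levels were 9.19, 12.5 and 12.3 CPM with 1 µg and 3.69, 3.48 and 3.89 CPM with 10 µg. Every 24 h library was above every untreated and 6 h library, and all 1 µg libraries at 24 h were above all 10 µg libraries. The 24 h level was 9.93-fold the untreated level at 1 µg (log2 fold change 3.31 ± 0.21 SE, n = 3 libraries a group) and 3.24-fold at 10 µg (1.69 ± 0.23). In order of level, 1 µg at 24 h came before 10 µg at 24 h, and the other 3 groups overlapped.

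Cd79a was the scarcest of the genes. It had 3, 6 and 5 reads in the untreated libraries, and 6, 11 and 7 after 6 h with 1 µg and 10, 9 and 6 after 6 h with 10 µg. After 24 h it had 15, 19 and 16 reads with 1 µg and 12, 11 and 15 with 10 µg. The lowest 24 h count equalled the highest 6 h count, at 11 reads, and all untreated libraries were below all 24 h libraries. Mean levels went from 0.223 ± 0.067 CPM (SD, n = 3) in untreated cells to 0.757 ± 0.083 CPM at 24 h with 1 µg and 0.619 ± 0.095 CPM with 10 µg. These are 3.32-fold (log2 1.73 ± 0.42 SE) and 2.72-fold (1.45 ± 0.43) the untreated level. The 6 h means of 0.414 ± 0.121 and 0.404 ± 0.099 CPM lay between the untreated and 24 h means, and the 24 h doses overlapped each other.

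Cd28 stood at 2.64, 3.56 and 3.03 CPM in untreated libraries. It stood at 3.04, 3.20 and 3.49 CPM after 6 h with 1 µg and at 4.31, 3.22 and 4.35 CPM after 6 h with 10 µg. At 24 h it reached 13.4, 9.93 and 10.5 CPM with 1 µg and 21.6, 22.1 and 19.8 CPM with 10 µg. The groups at 24 h were separate from each other and from all others, with 10 µg highest, while the untreated and 6 h groups overlapped. The 24 h level was 3.66-fold the untreated level at 1 µg (log2 1.87 ± 0.14 SE) and 6.85-fold at 10 µg (2.78 ± 0.14).

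Lck was the gene with the smallest 24 h difference. It stood at 3.66, 4.33 and 4.22 CPM in untreated libraries, and at 4.11, 3.55 and 3.65 CPM after 6 h with 1 µg and 4.40, 5.0 and 3.67 CPM after 6 h with 10 µg. At 24 h the levels were 7.73, 7.08 and 6.99 CPM with 1 µg and 7.81, 9.53 and 9.52 CPM with 10 µg. All 24 h libraries were above all others, and the lowest 10 µg library was just above the highest 1 µg library. The 24 h level was 1.78-fold the untreated level at 1 µg (log2 0.83 ± 0.14 SE) and 2.20-fold at 10 µg (1.13 ± 0.14). In the GENCODE M21 annotation (GRCm38) Lck shares exon bases with Mir8119 on its own strand, and the other 4 genes share exon bases with no gene.

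Csf3r stood at 3.22, 3.42 and 4.47 CPM in untreated libraries. It stood at 4.43, 3.70 and 4.13 CPM after 6 h with 1 µg and at 3.15, 3.22 and 4.20 CPM after 6 h with 10 µg. At 24 h it reached 22.4, 20.3 and 26.4 CPM with 1 µg and 31.1, 33.7 and 36.4 CPM with 10 µg. Here too the 24 h groups were separate from each other, with 10 µg highest, and the other 3 groups overlapped. The 24 h level was 6.22-fold the untreated level at 1 µg (log2 2.64 ± 0.13 SE) and 9.12-fold at 10 µg (3.19 ± 0.13).

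**Figure D1:**
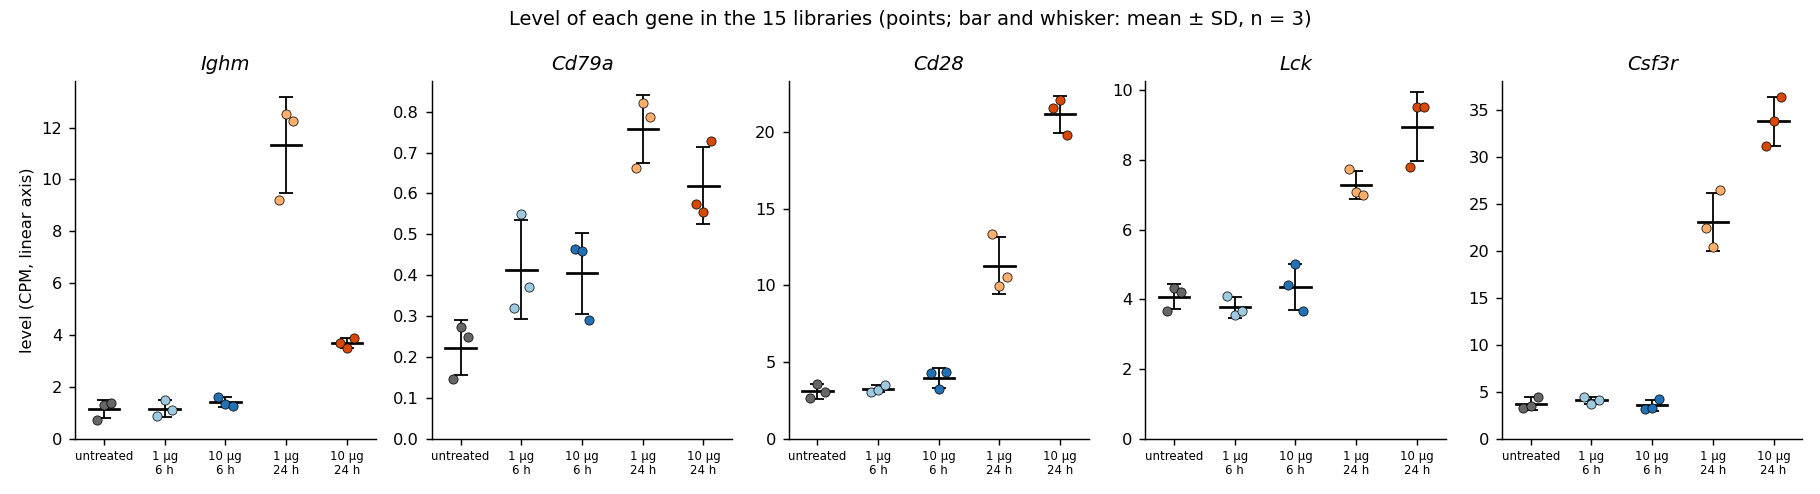
Level in CPM on a linear axis from 0 for each of the 5 genes, by group; points are libraries, bars and whiskers the mean ± SD (n = 3). Ighm is highest after 24 h with 1 µg (11.3 CPM on average), while Cd28 and Csf3r are highest after 24 h with 10 µg (21.2 and 33.8 CPM).

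Many genes moved at 24 h. Of the 12401 tested genes, 30.8% were called higher and 31% lower than untreated at 1 µg, and 35.4% higher and 34.9% lower at 10 µg (edgeR's quasi-likelihood test, Benjamini-Hochberg adjusted p under 0.05), and the 5 higher genes were picked from among these. Per kilobase of exon, the untreated order was Lck at 1.39 CPM per kb, Csf3r at 1.03, Ighm at 0.601, Cd28 at 0.502 and Cd79a at 0.153, and the ranges of Ighm and Cd28 overlapped. With 1 µg at 24 h, Csf3r at 6.39 CPM per kb and Ighm at 6.00 overlapped at the top, followed by Lck at 2.48, Cd28 at 1.84 and Cd79a at 0.52. With 10 µg at 24 h, Csf3r stood at 9.35 CPM per kb, Cd28 at 3.46 and Lck at 3.06 overlapped, and Ighm at 1.95 and Cd79a at 0.425 were below them. Even at their highest these levels were below that of Adgre1, at 19.6 and 19 CPM per kb at 24 h with 1 µg and 10 µg.

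None of the 5 genes passed the test at 6 h. Against untreated cells, whose libraries also served in choosing the genes, 0 of 5 were called at 1 µg and 0 of 5 at 10 µg, beside 0% and 5.95% of all genes tested by edgeR's quasi-likelihood test. Between the doses at 6 h, a comparison that uses no untreated or 24 h library, 0 of 5 were called beside 2.35% of all genes. At an unadjusted p under 0.05 the count was 0 at 1 µg, 1 at 10 µg and 0 between the doses, and DESeq2 and limma-voom also called 0 of 5 in each. That gene was Cd28 after 6 h with 10 µg, with a log2 fold change of 0.36 ± 0.16 (adjusted p = 0.221 by edgeR). For Cd79a the approximate 95% interval, taken from the SE, of the log2 fold change at 6 h ran from -0.04 to 1.79 with 1 µg and from -0.08 to 1.75 with 10 µg, which takes in both 0 and the 24 h estimates. The intervals were narrower for Ighm (-0.50 to 0.56 and -0.20 to 0.81), Cd28 (-0.26 to 0.41 and 0.05 to 0.68), Lck (-0.41 to 0.19 and -0.20 to 0.39) and Csf3r (-0.17 to 0.45 and -0.39 to 0.25). Each lay below that gene's own 24 h estimate, and only the Cd28 interval with 10 µg left out 0.

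Between the doses at 24 h, Ighm was lower and Cd28 and Csf3r were higher with 10 µg than with 1 µg. The 24 h libraries also served in choosing the genes, though the doses were not compared in that choice. Ighm was 3.07-fold lower with 10 µg (log2 fold change -1.62 ± 0.18 SE, adjusted p = 7.4e-08 by edgeR), with all 3 libraries below all 3 given 1 µg. Cd28 was 1.87-fold higher (0.91 ± 0.12, adjusted p = 1.52e-06) and Csf3r 1.47-fold higher (0.55 ± 0.10, adjusted p = 0.00015), again with no overlap. These 3 calls among 5 genes stand beside 35.3% of all genes called between the doses at 24 h.

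Lck and Cd79a did not pass between the doses at 24 h. For Lck the log2 fold change was 0.30 ± 0.13 (edgeR adjusted p = 0.0756, approximate 95% interval 0.05 to 0.55), and without the first library of the 24 h group given 10 µg it was 0.39 and passed (adjusted p = 0.0317). For Cd79a it was -0.29 ± 0.35 (adjusted p = 0.569, interval -0.97 to 0.39). At 6 h, the same dose comparison gave 0.27 ± 0.26 for Ighm, 0.29 ± 0.16 for Cd28, 0.21 ± 0.15 for Lck, -0.21 ± 0.16 for Csf3r and -0.04 ± 0.42 for Cd79a.

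**Figure D2:**
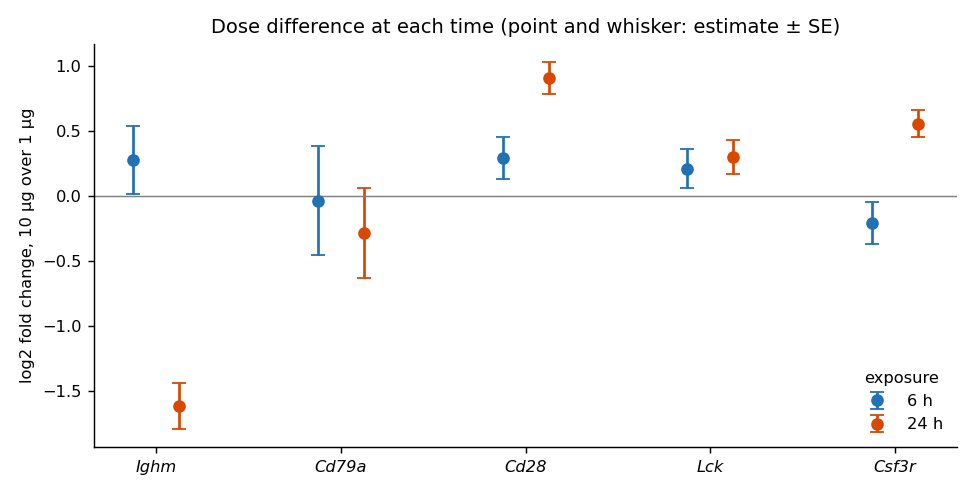
Log2 fold change of 10 µg over 1 µg for each gene, at 6 h (blue) and 24 h (orange), as estimate ± SE from the fit over all 15 libraries. At 24 h Ighm lies at -1.62 while Cd28 and Csf3r lie at 0.91 and 0.55; at 6 h no gene passed the test.

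Most B cell partners of Ighm and Cd79a had no reads. Of 11 other genes of the B cell receptor and early B cell stages, 8 had 0 reads in all 15 libraries: the light-chain genes Igkc, Iglc1, Iglc2 and Iglc3, the Ig-beta gene Cd79b, the B cell surface gene Ms4a1, the surrogate light-chain gene Igll1 and the recombinase gene Rag1. Over the 15 libraries Ighm had 1198 reads, Cd79a 151, the delta heavy-chain gene Ighd 13, the surrogate light-chain gene Vpreb1 19 and the B cell transcription factor gene Pax5 4. The Ighd reads were 0 in untreated cells, 4 at 24 h with 1 µg and 8 at 24 h with 10 µg, so they were not highest in the group where Ighm was highest. Of 259 immunoglobulin rows other than Ighm, 4 had any read, 31 reads in all. Ighm was thus counted in libraries without a read of any light-chain constant gene listed above.

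The T cell genes gave a similar picture for Cd28 and Lck. Of 12 other genes of the T cell receptor complex and its signalling, 6 had 0 reads in every library: the receptor constant genes Trbc1 and Trbc2, the CD3 genes Cd3e and Cd3g, and the coreceptor genes Cd8a and Cd8b1. The receptor constant gene Trac had 2 reads over the 15 libraries, Cd3d 3 and the kinase gene Zap70 5. Cd4 had 14 reads over the 3 libraries at 24 h with 10 µg and 1 to 3 in each other group. The 226 T cell receptor rows held 5 reads in all, against 1770 for Lck and 2669 for Cd28.

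The zeta-chain gene Cd247, whose product Lck phosphorylates, and the adaptor gene Lat were the T cell partners with enough reads to test. Cd247 stood at 44.0 ± 3.35 CPM in untreated cells and fell by 0.63 on the log2 scale at 24 h with 10 µg (± 0.14 SE, edgeR adjusted p = 0.00141), the opposite direction to Cd28 and Lck. Lat rose by 1.43 ± 0.33 with 10 µg (adjusted p = 0.00051), from 51 reads over the untreated libraries to 135, and its estimate with 1 µg was 0.28 ± 0.36 (adjusted p = 0.516).

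Of 13 granulocyte partners of Csf3r, 3 were at 0, 3 had enough reads to test and the rest had few reads. Ly6g, the cathepsin G gene Ctsg and the calgranulin gene S100a9 had 0 reads in every library. Over the 15 libraries the primary-granule genes Mpo and Elane had 1 and 18 reads and the lactoferrin gene Ltf had 1, against 4267 for Csf3r. The Elane reads were 2 in untreated cells, 0 in each 6 h group, 9 at 24 h with 1 µg and 7 at 24 h with 10 µg. Cebpe, a transcription factor of late granulocyte stages, rose with 10 µg at 24 h (log2 0.52 ± 0.12, edgeR adjusted p = 0.000485). The collagenase gene Mmp8 had 43 reads over the untreated libraries and 47 at 24 h with 1 µg (log2 0.04 ± 0.46, adjusted p = 0.942). At 24 h with 10 µg it had 5 reads, all in the same library, and fell by 2.98 ± 0.70 (adjusted p = 0.000493), so this estimate lies near the floor. S100a8, from 43 reads to 17, fell by 1.30 ± 0.55 (adjusted p = 0.0393), a call lost by DESeq2, by limma-voom and on leaving out untreated replicate 1 or 3 or replicate 1 or 2 of that group (adjusted p = 0.0511 to 0.18).

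**Figure D3:**
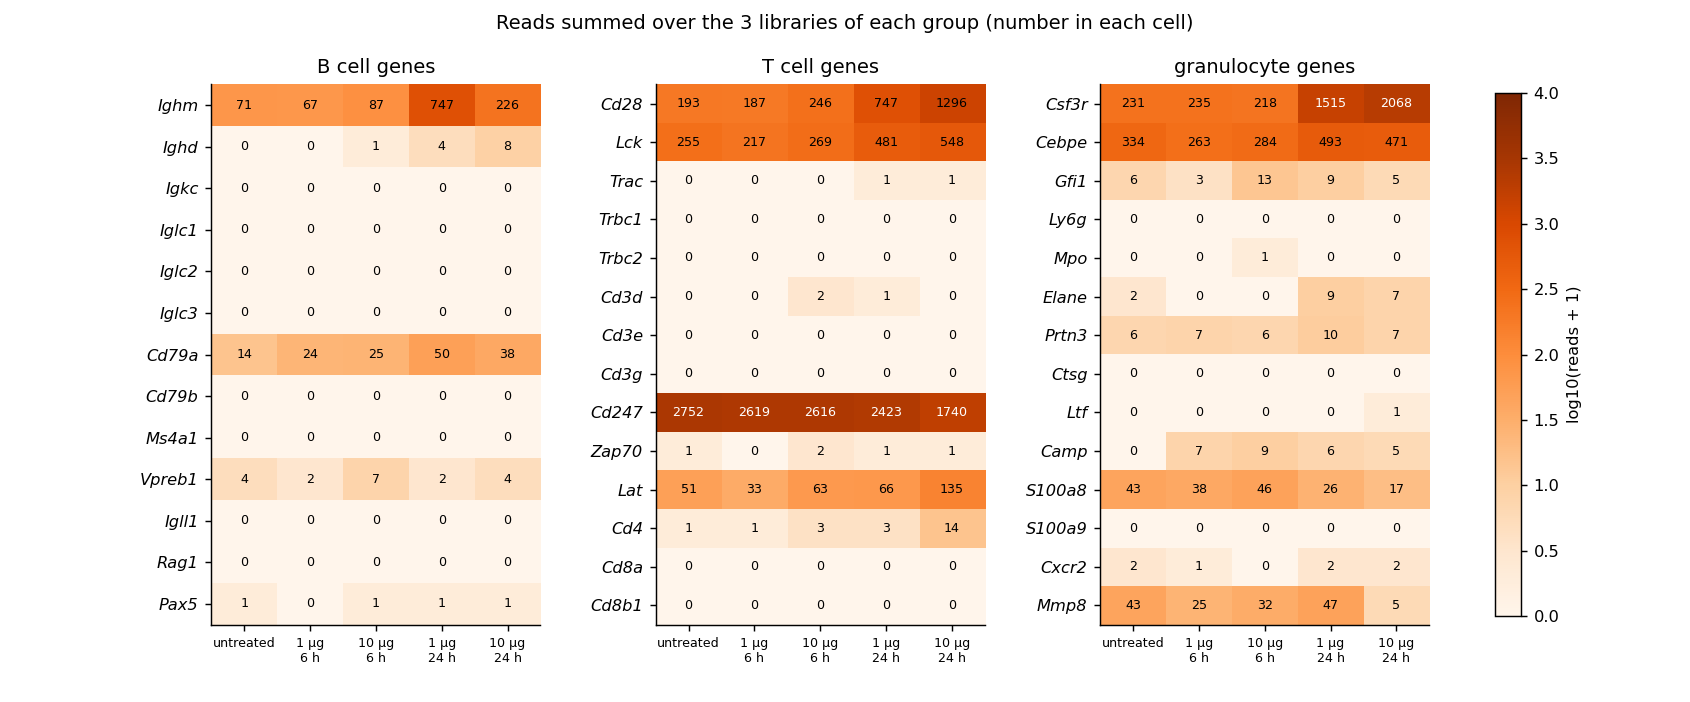
Reads summed over the 3 libraries of each group for the 5 genes and their partner genes, with the number in each cell and shading by log10(reads + 1). Igkc, Cd79b, Cd3e, Trbc1, Ly6g and others stay at 0 in every group, while Ighm goes from 71 reads in untreated cells to 747 at 24 h with 1 µg.

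Marker lists of other blood lineages, with the 5 genes left out, held 159 genes, of which 158 were in the table. In these lists 58 genes had 0 reads in every library, 69 had too few to test, and 31 were tested. A gene can pass the filter through the group where it is high, so the counts below describe the tested genes only. At 24 h with 1 µg, 15 of the 31 rose, 1 fell and 15 did not pass, with a median log2 fold change of 0.50 beside 0.01 over all genes. At 24 h with 10 µg, 16 rose, 7 fell and 8 did not pass, with a median of 0.66 beside 0.01. These counts stand beside 30.8% of all genes tested called higher and 31% lower with 1 µg, and 35.4% and 34.9% with 10 µg, shares that hold for every list that follows. At 6 h none passed with 1 µg (edgeR, where 0% of all genes did and 337 had an unadjusted p under 0.05). DESeq2 and limma-voom called none of all genes either. With 10 µg at 6 h, 2 rose (Il7r and Gata3) and 1 fell (Cd72), beside 5.95% of all genes tested called in either direction. The lists held tested genes that were higher at 24 h, and others of the same lists were lower or at 0. As the filter can favour genes with reads at 24 h, these counts do not show whether lineage genes rose more often than all genes did.

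Among the B lineage genes, 5 of 8 tested rose at each dose, and 2 fell at 10 µg. Cr2, the complement receptor gene of mature B cells, is counted among the 5. It went from 9 reads over the untreated libraries to 62 with 10 µg (log2 fold change 2.76 ± 0.50). Cr2 passed the filter through the 24 h groups, so this difference is given as a description. With 10 µg the B cell adaptor gene Blnk, which links the receptor's kinase to its substrates, rose by 1.00 ± 0.10 (edgeR adjusted p = 2.3e-09). The chemokine receptor gene Cxcr5 rose by 0.78 ± 0.10 (adjusted p = 7.13e-08). The inhibitory receptor gene Cd72 fell by 0.40 ± 0.05 (adjusted p = 3.62e-08). The summed level of the B list ranged over 516 to 531 CPM in untreated libraries, 537 to 574 with 1 µg at 24 h and 439 to 443 with 10 µg, the largest part of it Cd72 at 403 CPM in untreated cells, so the sum was lower with 10 µg while Ighm and Cd79a were higher than in untreated cells.

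Among the T lineage genes, 5 of 10 tested rose at each dose and 1, Cd247, fell at 10 µg. Il7r, the interleukin-7 receptor gene, rose by 1.76 ± 0.09 with 10 µg (edgeR adjusted p = 6.92e-12) and gave 0.09 ± 0.09 with 1 µg (adjusted p = 0.384). Gata3, the transcription factor gene of T helper 2 cells, rose by 1.65 ± 0.15 with 10 µg (adjusted p = 2.44e-10) and by 0.90 ± 0.15 with 1 µg (adjusted p = 1.5e-05). The summed T list level ranged over 118 to 124 CPM in untreated libraries, 120 to 144 with 1 µg at 24 h and 250 to 262 with 10 µg. Il7r alone went from 56.2 to 190 CPM between untreated cells and 10 µg, which makes up the higher sum. Whether other cells had a part in the levels of the 5 genes was not tested. Of the defining lineage genes, Ms4a1, Cd3e, Trbc1, Trbc2 and Ly6g were at 0 in every library. Cd4, Elane, Mpo and S100a8 had 22, 18, 1 and 170 reads over the 15 libraries.

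The remaining lists held few tested genes. For granulocytes, 4 of 32 genes were tested, 1 rose at 1 µg, and 2 rose and 2 fell at 10 µg; the gelatinase gene Mmp9 rose by 1.64 ± 0.30 with 10 µg (edgeR adjusted p = 3.26e-05). The summed granulocyte list ranged over 7.48 to 8.84 CPM in untreated libraries, 9.67 to 12.7 with 1 µg at 24 h and 11.2 to 12.2 with 10 µg. For natural killer and cytotoxic cells, 1 of 18 was tested, and this gene, Il18rap, rose with 1 µg (0.50 ± 0.14, adjusted p = 0.00734) and fell with 10 µg by 0.68 ± 0.15 (adjusted p = 0.0011). The fibroblast, epithelial and endothelial genes summed to between 0.64 and 2.74 CPM in every library, with 9 of 17 at 0. The 1 gene of that list tested was the pericyte and fibroblast receptor gene Pdgfrb. It went from 17 reads over the untreated libraries to 74 with 1 µg, with 12 to 44 a library (log2 fold change 2.01 ± 0.49). Its reads at 24 h with 1 µg were enough by themselves for Pdgfrb to pass the filter on low counts, so this difference is given as a description. With 10 µg the gene had 21 reads and gave 0.33 ± 0.59 (adjusted p = 0.635). Ighm was also highest in the group given 1 µg for 24 h, and a part of other cells in that level was not tested.

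**Figure D4:**
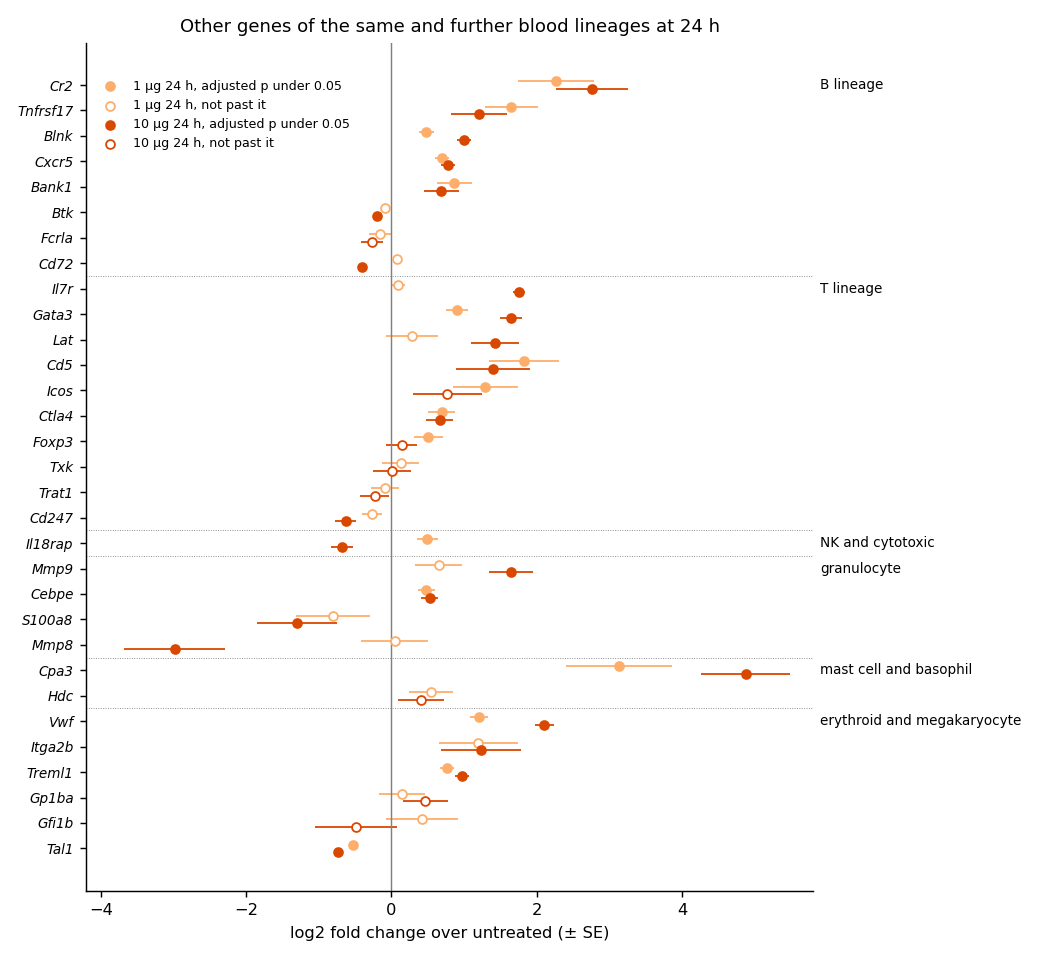
Log2 fold change over untreated (± SE) at 24 h for the 31 tested genes of other blood lineages, 1 µg in light orange and 10 µg in dark orange, filled where the adjusted p was under 0.05. Both doses share the untreated libraries; 15 genes rose with 1 µg and 16 with 10 µg, and 1 and 7 fell.

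Downstream of the receptors, the signalling lists held genes called in each direction, as did all genes tested. Of 24 tested B cell receptor signalling genes, 10 rose and 8 fell at 24 h with 1 µg, and 11 rose and 10 fell with 10 µg, beside 30.8% higher and 31% lower and 35.4% and 34.9% of all genes, with medians of 0.07 and 0.06 on the log2 scale. The inhibitory Fc receptor gene Fcgr2b, which macrophages also express, rose by 1.47 ± 0.05 with 10 µg (edgeR adjusted p = 6.24e-18), and the phosphoinositide kinase gene Pik3cd fell by 0.70 ± 0.06 (adjusted p = 4.73e-11). The calcineurin-regulated factor genes Nfatc1 and Nfatc2 fell by 1.44 ± 0.06 (adjusted p = 6.82e-17) and 0.74 ± 0.06 (adjusted p = 1.23e-11).

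Of 24 tested T cell receptor and CD28 signalling genes, 13 rose and 5 fell with 1 µg, and 14 rose and 5 fell with 10 µg, with medians of 0.24 and 0.33. The adaptor genes Lcp2, encoding SLP-76, and Sla rose by 0.95 ± 0.07 (edgeR adjusted p = 1.37e-10) and 1.21 ± 0.09 (adjusted p = 4.06e-12) with 10 µg. The CD28 ligands were named for that role, after their values were seen. Cd86 rose by 2.36 ± 0.34 with 1 µg (adjusted p = 1.57e-06) and 3.01 ± 0.33 with 10 µg (adjusted p = 9.72e-09), and Cd80 rose by 0.88 ± 0.09 (adjusted p = 5.46e-09) and 0.75 ± 0.09 (adjusted p = 4.83e-08). Cd28 and its ligand genes were thus all higher at 24 h in the same libraries.

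Of 21 tested CSF3R signalling genes, 9 rose and 8 fell with 1 µg, and 9 rose and 7 fell with 10 µg, with medians of 0.10 and 0.08, beside the same shares of all genes. The scaffold gene Gab2 rose by 1.25 ± 0.05 with 10 µg (edgeR adjusted p = 3.23e-16). The phosphatase genes Inpp5d, encoding SHIP1, and Ptpn11, encoding SHP2, fell by 0.61 ± 0.05 (adjusted p = 5.18e-11) and 0.48 ± 0.04 (adjusted p = 3.73e-10). Csf3, the gene of the ligand G-CSF, was named for that role after its values were seen and had too few reads to test, with 12 over the untreated libraries, 2 at 24 h with 1 µg and 7 with 10 µg.

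Of 23 lineage transcription factor genes, 10 were tested, of which 5 rose and 3 fell with 1 µg and 4 rose and 5 fell with 10 µg. Id3 and Id2, inhibitors of the E-protein factors that drive lymphocyte genes, were lower at 24 h. So were 31% of all genes tested with 1 µg and 34.9% with 10 µg. Id3 stood at 111 ± 4.90 CPM in untreated cells, 13.5 ± 3.20 with 1 µg and 6.85 ± 1.35 with 10 µg at 24 h, and fell by 3.03 ± 0.12 (edgeR adjusted p = 6.9e-12) and 4.02 ± 0.13 (adjusted p = 2.55e-13) on the log2 scale. Id2 stood at 143 ± 4.91, 21.0 ± 0.85 and 43.3 ± 0.95 CPM and fell by 2.77 ± 0.06 (adjusted p = 5.1e-22) and 1.72 ± 0.05 (adjusted p = 7.35e-19). Id2 was thus lowest with 1 µg at 24 h and Id3 with 10 µg at 24 h. A part of these falls in the levels of Ighm, Cd79a, Cd28, Lck and Csf3r was not tested. The E-protein gene Tcf3 itself fell by 0.40 ± 0.05 with 10 µg (adjusted p = 4.74e-07).

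Over the 15 libraries, Cd28, Lck and Csf3r followed each other with Pearson's r of 0.947 to 0.967 on log2 CPM, while Ighm gave 0.766 to 0.838 with the other 4 genes and Cd79a 0.725 to 0.838. The libraries share groups, so these are descriptions and carry no p. The genes were also chosen for their higher counts at 24 h, and that shared step by itself raises r between them. These r values therefore cannot show whether the genes follow each other apart from that step. The tested genes closest to Ighm were Spn (r = 0.969), encoding the leukocyte sialoglycoprotein CD43, the sialyltransferase gene St3gal6 (0.969) and Glp2r (0.967). These 3 were picked for following Ighm over the same libraries, which favours genes with its dose order at 24 h. As a description, they were lower with 10 µg than with 1 µg at 24 h by 0.67 ± 0.09, 0.67 ± 0.07 and 0.57 ± 0.05 on the log2 scale. The closest to Csf3r were the cholesterol esterification gene Soat2 (0.994), Ankrd45 (0.993) and Echdc3 (0.993). Ankrd45 had 0 reads in every untreated and 6 h library, 13 to 16 in each library at 24 h with 1 µg and 15 to 22 with 10 µg.

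The genes closest to Cd28 were Dtx3 (0.989), Nub1 (0.988) and Gpr132 (0.988), and those closest to Lck were Gpr162 (0.982), the nonclassical class I gene H2-T23 (0.981) and Mtmr14 (0.979). For Cd79a, with its few reads, the closest were Ttbk2 (0.918), the cytokine gene Flt3l (0.909) and Vps45 (0.903).

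The nearest genes with a read on each side of the 5, in the order of the RefSeq table (GRCm38.p6), gave the following log2 fold changes at 24 h with 1 µg and 10 µg. Beside Cd28, Ctla4, which encodes the inhibitory receptor for the same ligands, rose by 0.69 ± 0.19 with 1 µg (edgeR adjusted p = 0.00439) and 0.66 ± 0.19 with 10 µg (adjusted p = 0.00491), and Raph1 on the other side gave 0.10 ± 0.07 (adjusted p = 0.193) and rose by 0.33 ± 0.07 with 10 µg (adjusted p = 8.82e-05). Beside Lck, Fam167b rose by 0.32 ± 0.06 (adjusted p = 5.18e-05) and 0.22 ± 0.06 (adjusted p = 0.0022), and Hdac1 gave -0.08 ± 0.08 (adjusted p = 0.407) and fell by 0.29 ± 0.08 with 10 µg (adjusted p = 0.00375). Beside Cd79a, Arhgef1 rose by 0.14 ± 0.05 with 1 µg (adjusted p = 0.0239) and gave 0.04 ± 0.05 with 10 µg (adjusted p = 0.495). Rps19 gave 0.05 ± 0.11 (adjusted p = 0.7) and fell by 0.35 ± 0.12 with 10 µg (adjusted p = 0.0128). Beside Csf3r, Mrps15 fell by 0.17 ± 0.07 (adjusted p = 0.0298) and 0.30 ± 0.07 (adjusted p = 0.00044), and Grik3 gave -0.52 ± 0.54 (adjusted p = 0.416) and 0.06 ± 0.51 (adjusted p = 0.924). Beside Ighm, Ighd and Ighv3-3 had too few reads to test.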

How the data were processed

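RNA from 15 libraries of RAW264.7 cells was sequenced from TruSeq stranded mRNA libraries, per the labels' protocols. The authors deposited whole-number read counts per gene symbol, on build GRCm39 per the submitters' processing notes. Aligner, counter, annotation, strand setting and filters: not given in the sources used here. All columns were matched to libraries by the labels.

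The analysis used edgeR 4.0.16 under R 4.3.3: filterByExpr defaults (12401 genes kept, 99.97% of counts), TMM, a robust glmQLFit over all 15 libraries and two-sided glmQLFTest, with Benjamini-Hochberg adjustment over all genes kept and calls at 0.05. The prior count for fold changes was 0.125. SE is the log2 fold change over the root of F. Levels are CPM on TMM-adjusted sizes; levels per kb use GENCODE M21 exon lengths (GRCm38). Correlations used log2 CPM with 0.5 counts added. Alternatives were RLE factors, DESeq2 1.42.0, limma-voom (limma 3.58.1), no filter, only the groups compared, a replicate block and leaving out each library. The fit was checked on simulated counts.

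The genes and lists were chosen with earlier results of these data known. Named genes were the 5 genes; up to 4 called genes with the smallest p per list at 24 h with 10 µg; the 3 most correlated genes and nearest neighbours of each; and defining lineage genes; some of these genes are not reported here. Dendritic and macrophage list results: of 5 dendritic genes tested 2 rose and 0 fell with 1 µg and 1 rose and 1 fell with 10 µg at 24 h, and of 14 macrophage genes 4 rose and 4 fell, and 6 rose and 6 fell.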

Additional observations from a re-analysis of the deposited data

Results flagged for a closer look

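The dose difference at 24 h was set against the dose difference at 6 h in an interaction test added after the data were seen. edgeR's quasi-likelihood test called the interaction in 3 of the 5 genes, beside 18.6% of all genes tested. Ighm gave -1.89 ± 0.31 on the log2 scale (adjusted p = 0.000144), from a 10 µg to 1 µg difference of 0.27 at 6 h and -1.62 at 24 h. Csf3r gave 0.76 ± 0.19 (adjusted p = 0.00586), from -0.21 to 0.55. Cd28 gave 0.62 ± 0.20 (adjusted p = 0.0351), from 0.29 to 0.91. The Cd28 call is the least stable of these: over 17 alternatives its estimate ran from 0.49 to 0.76 and its adjusted p from 0.00631 to 0.115. Ighm and Csf3r stayed past the threshold in all 17, from -2.13 to -1.72 and from 0.68 to 0.91. Cd79a (-0.24 ± 0.55, adjusted p = 0.816) and Lck (0.09 ± 0.20, adjusted p = 0.812) did not pass. The 24 h libraries in this comparison also served in choosing the genes, so these values are no independent support for the 24 h levels.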

How the results depend on the processing

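Replicate numbers did not pair the libraries: same-numbered libraries of different groups correlated at -0.199 to 0.234 after group means were removed, with 3 of 18 pairs over 0.1 and 8 best with their own number. With the number as a replicate block, the 10 µg to 1 µg difference at 24 h was called for 3 of the 5 genes, as without it, and 4291 of all genes were called in place of 4383. No alternative turned the direction of a called value. The count of other-lineage genes called lower at 24 h with 1 µg was 1, and 2 by DESeq2, by limma-voom and over only the groups compared; leaving out single libraries gave 1 to 2, with 2 without replicate 1 or 3 of that group. Over 12 alternatives the 24 h dose difference ran from -1.75 to -1.54 for Ighm, 0.82 to 1.05 for Cd28 and 0.47 to 0.66 for Csf3r, all past the threshold, and from 0.25 to 0.39 for Lck. Of all genes, 738 were called at 6 h with 10 µg against untreated, 1450 when only the groups compared were fitted and 394 to 466 when any 1 library of the pair was left out. Between the doses at 6 h the counts were 291, 1025 and 115 to 163. At 6 h with 1 µg, 0 became 1 without the filter on low counts and on leaving out untreated replicate 3. Cd79a, with 3 to 19 reads a library, is limited by depth.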

Other observations

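Lists of mast cell and basophil genes and of erythroid and megakaryocyte genes, further blood lineages, held 2 and 6 tested genes. Cpa3, the mast cell carboxypeptidase gene, had 4 reads over the untreated libraries, 4 and 5 over the 6 h groups given 1 µg and 10 µg, 40 at 24 h with 1 µg and 126 with 10 µg. It passed the filter on low counts through the 24 h groups alone. The other tested gene of the list, Hdc, gave 0.55 ± 0.31 with 1 µg (edgeR adjusted p = 0.126) and 0.41 ± 0.31 with 10 µg (adjusted p = 0.252). Of the 11 mast cell and basophil genes, 7 had 0 reads in every library, and the summed list ranged over 1.37 to 1.66 CPM in untreated libraries and 3.73 to 4.41 CPM at 24 h with 10 µg.

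Of the 6 tested erythroid and megakaryocyte genes, 2 rose and 1 fell at 24 h with 1 µg and 3 rose and 1 fell with 10 µg, beside 30.8% higher and 31% lower and 35.4% and 34.9% of all genes tested. Vwf, the von Willebrand factor gene of megakaryocytes and endothelium, stood at 7.09 ± 0.90 CPM (SD, n = 3) in untreated cells, 16.4 ± 3.46 with 1 µg and 30.5 ± 2.15 with 10 µg at 24 h, and rose by 1.20 ± 0.13 and 2.10 ± 0.13 on the log2 scale (edgeR adjusted p = 2.92e-08 and 4.45e-13). The platelet receptor gene Treml1 rose by 0.76 ± 0.10 and 0.97 ± 0.10 (adjusted p = 2.63e-07 and 2.06e-09). Tal1, the erythroid and megakaryocyte factor gene, fell by 0.53 ± 0.06 and 0.73 ± 0.06 (adjusted p = 1.34e-08 and 2.19e-11). Itga2b gave 1.24 ± 0.55 with 10 µg (adjusted p = 0.0474), from 15 reads over the untreated libraries to 35. Its call was lost by DESeq2 (adjusted p = 0.0847), by limma-voom (0.0696) and on leaving out untreated replicate 1 or 3 or replicate 1 or 2 of the 24 h group given 10 µg, up to 0.199.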
